A study of Mus musculus with 2 samples.

Results

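The genes of the major histocompatibility complex (MHC) studied here are the protein-coding genes whose mouse symbol starts with H2-, together with Tap1, Tap2, Tapbp, Psmb8, Psmb9, B2m, Ciita, Nlrc5 and Cd74. They were chosen by symbol and not by any measured value, and number 43 of the 21938 protein-coding genes in the GENCODE M21 annotation of the mouse genome build mm10 (GRCm38). Of these, 39 lie on chromosome 17. DNase-seq, which reads accessible chromatin from the cuts that the enzyme DNase I makes in nuclei, was carried out on lung tissue of male B6CASTF1/J mice aged 14 days. There were 2 libraries in 1 group: replicate 1, labelled as male without mention of a pool, and replicate 2, a pool of 3 males. The labels give both the same donor record and do not say whether any animal went into both. There was no second group, and all values below are descriptions of these libraries set side by side.

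MHC class I molecules present peptides from inside the cell to cytotoxic T cells. They consist of a heavy chain and beta-2 microglobulin, and are loaded with peptides that the immunoproteasome cuts and the TAP transporter carries into the endoplasmic reticulum. MHC class II molecules present peptides from the endocytic pathway to helper T cells and are made mainly by dendritic cells, B cells and macrophages, and by some epithelial cells, in the lung the alveolar type 2 cells among them. Class II promoters are known for a conserved arrangement of an X box, bound by RFX and CREB family proteins, and a Y box, bound by NF-Y, on which the coactivator CIITA assembles. Class I promoters carry a related module served by NLRC5, with kappa B and interferon-response elements beside it.

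B6CASTF1/J is a first-generation hybrid of C57BL/6J and CAST/EiJ. The mm10 sequence is that of C57BL/6J, and the MHC is among the regions where mouse strains differ most. The CAST sequence was not used here, and how the second allele bears on the peaks was not tested. Replicate 1 held 94786 peaks and replicate 2 held 77403. The peak score is the authors' own and was used as a rank within its own library, given below as the percent of that library's peaks that score no higher. Read depth is unknown, since the files used here give no read counts. In bulk tissue, fewer cells of a type and less accessibility per cell cannot be told apart. Promoters of markers of the lung's own cells were accessible: 5 of 5 endothelial markers, 5 of 6 of alveolar type 2 cells, 3 of 4 of alveolar type 1 cells, and Nkx2-1, in both libraries. Of the markers of cells that present antigen by profession, 1 of 5 was accessible in both libraries for B cells (Pax5), 1 of 6 for dendritic cells (Zbtb46) and 1 of 6 for macrophages (Spi1). Of all protein-coding genes 63.6% were.

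The sequences below are those on which the class II results turn. Each is the GRCm38 strand that reads in the gene's direction, 60 bases long and ending with the Y box. Capitals mark the Y box letters ATTGG, the X box letters AGCAAC where present, and in H2-Aa the letters TGACGTCA, the cyclic AMP response element (CRE) that CREB proteins bind. They lie at chr17:34305753-34305812, chr17:34287867-34287926, chr17:34257714-34257773 and chr17:34238793-34238852, the H2-Aa stretch on the minus strand and the others on the plus strand.
H2-Eb1: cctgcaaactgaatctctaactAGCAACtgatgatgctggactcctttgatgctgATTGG
H2-Aa: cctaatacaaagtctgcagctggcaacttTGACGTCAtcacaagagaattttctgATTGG
H2-Ab1: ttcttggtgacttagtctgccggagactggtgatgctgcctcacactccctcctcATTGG
H2-Ob: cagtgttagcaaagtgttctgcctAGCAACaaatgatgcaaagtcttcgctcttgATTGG

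The class I stretches show a pair of Y boxes that face each other, ATTGG followed by CCAAT, and the kappa B letters GGGATTNCC with 8 bases on each side. Capitals mark these letters, and each sequence again reads in the gene's direction. The pairs lie at chr17:34000335-34000363 (H2-K1, minus strand), chr17:35263018-35263045 (H2-D1), chr17:35379538-35379566 (H2-Q4), chr17:35424771-35424799 (H2-Q6), chr17:35439115-35439143 (H2-Q7) and chr17:36042801-36042830 (H2-T22, minus strand).
H2-K1: ATTGGgtggcgcgatcaccaagaaCCAAT
H2-D1: ATTGGgtggcgagattccaggagCCAAT
H2-Q4: ATTGGgtgacgtgatcaccgggaaCCAAT
H2-Q6: ATTGGgtgaggtgatcaccgggaaCCAAT
H2-Q7: ATTGGgtgaggtgattacccggaaCCAAT
H2-T22: ATTGGctaataacgacgacaagaagCCAAT
The kappa B stretches lie at chr17:34000441-34000465 (H2-K1, minus strand), chr17:35262916-35262940 (H2-D1) and chr17:35379436-35379460 (H2-Q4).
H2-K1: cagggctgGGGATTCCCcatctcca
H2-D1: cagggctgGGGATTCCCcatctcct
H2-Q4: caggggtgGGGATTTCCcatctccc

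A promoter was called accessible when a peak lay within 1 kb of any transcript 5′ end of the gene. In replicate 1 this held for 26 of the 43 MHC genes, beside 66.6% of all protein-coding genes, and in replicate 2 for 26, beside 64.1%. The same 26 genes were accessible in both libraries (60.5%, beside 63.6% of all genes), none in 1 library only, and 17 in neither. The list as a whole was therefore near the background, and the roles within it fell on both sides of it. Both classical class I heavy chains and all 6 genes of class I peptide supply were accessible, as were 3 of 4 class II chain genes, 5 of 6 class II loading genes, 4 of 6 H2-Q genes, 3 of 4 H2-T genes, 1 of 2 regulators and H2-Ke6. Of the 12 H2-M genes 1 was accessible. H2-Ke6 is on the list by its symbol and encodes no MHC chain. Its highest promoter peak stood at percentiles of 90.6 in replicate 1 and 93.7 in replicate 2.

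**Figure D1:**
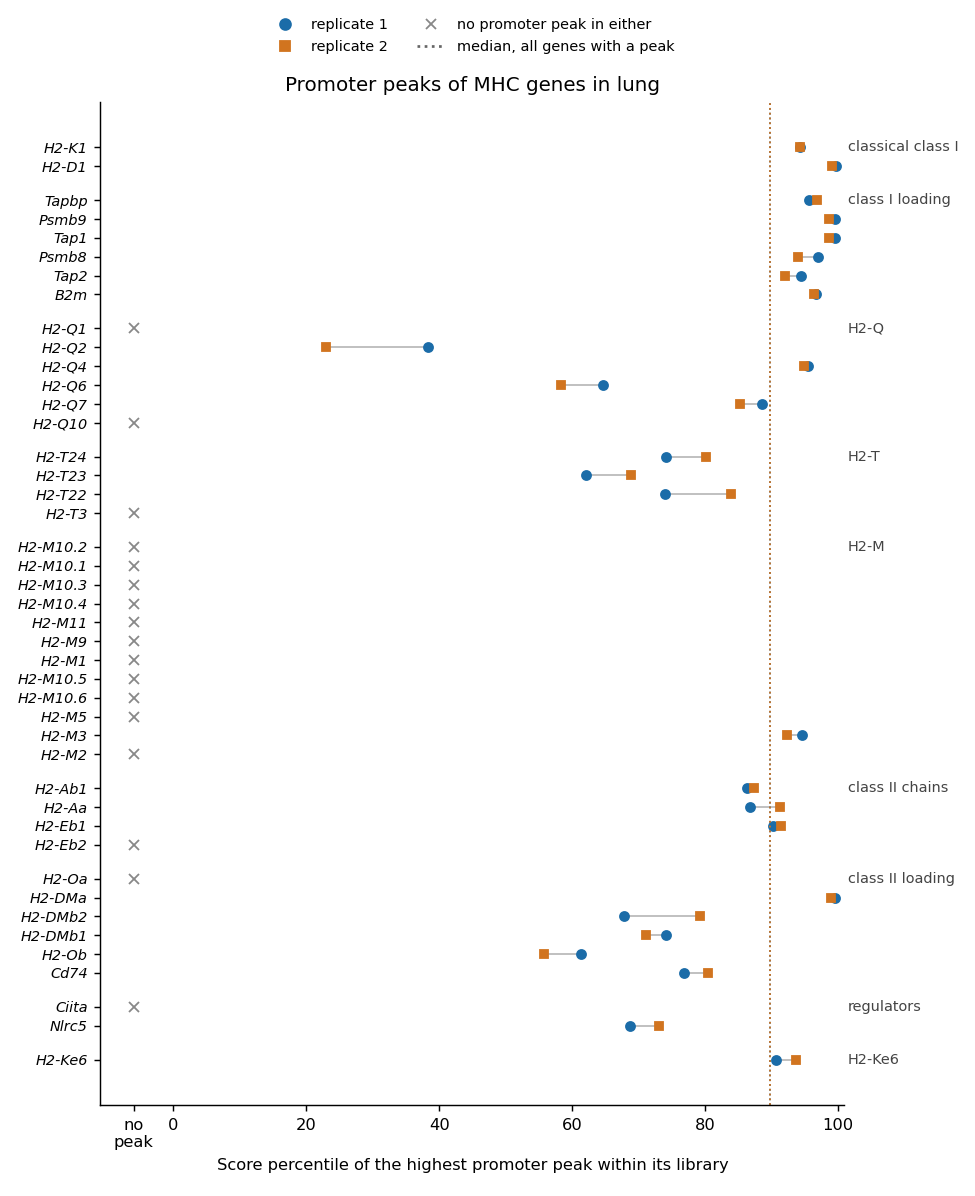
Score percentile of the highest promoter peak of each MHC gene within its library (x axis), by gene and role, with circles for replicate 1, squares for replicate 2 and crosses for genes with no promoter peak in either library; dotted lines mark the median of all genes with a peak. Classical class I and class I loading genes lie at 92.0 or above in both libraries, while 11 of the 12 H2-M genes have no peak.

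The classical class I genes H2-K1 and H2-D1 encode the heavy chains that nearly all nucleated cells display. H2-D1 (chr17:35262730-35267499, plus strand) had the highest promoter score percentile of all MHC genes in both libraries, 99.8 in replicate 1 (score 21.1) and 99.1 in replicate 2 (score 18.8). Its peak, chr17:35262921-35263100 in both, is centred 280 bp inside the gene model in an untranslated region of the annotated transcripts. H2-K1 (chr17:33996017-34000347, minus strand) stood at 94.3 and 94.4, with its peak across the 5′ end. Replicate 1 listed 3 further H2-K1 peaks at percentiles of 18.2 to 29.5 that replicate 2 did not list. Both genes have near-identical copies elsewhere: 72.1% of the 32-base words within 1 kb of the H2-K1 5′ end and 86.3% for H2-D1 occurred once in the genome. Within the peaks themselves the shares were higher, 94.7% and 91.0% for H2-K1 and 94.0% in both libraries for H2-D1.

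The genes that supply class I molecules with peptide were accessible throughout. Tap1 encodes a subunit of the peptide transporter and Psmb9 a catalytic subunit of the immunoproteasome, and both are read outward from 1 short stretch. Their highest peak was the same one, chr17:34187341-34187520, at percentiles of 99.6 and 98.7. Psmb8, another immunoproteasome subunit, stood at 97.03 and 94.1, and B2m, beta-2 microglobulin, at 96.7 and 96.4. Tapbp, tapasin, which holds the heavy chain at the transporter, stood at 95.7 and 96.9 with a peak that also lies within 1 kb of the Zbtb22 5′ end. Tap2, the other transporter subunit, had 94.4 and 92.0. The 6 genes had a median of 96.9 in replicate 1 and 96.7 in replicate 2, beside 89.9 and 89.7 for all genes with a promoter peak.

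The H2-Q and H2-T genes encode nonclassical class I chains, several of them with narrow expression. H2-Q4 was the highest, at 95.5 and 94.9, with a peak that the annotation also gives to Gm11131. H2-Q7 stood at 88.5 and 85.3, H2-Q6 at 64.7 and 58.3, and H2-Q2 at 38.3 and 22.99. The H2-Q2 peak lies over 700 bp inside the gene and was lost with a window of 500 bp in place of 1 kb. H2-T24 had 74.1 and 80.1 and H2-T22, a ligand of gamma delta T cells, 74.0 and 83.9. H2-T23, which encodes Qa-1, a ligand of the NKG2 receptors of natural killer cells, had 62.1 and 68.8. Its highest peak was not the same in both libraries, chr17:36032561-36032800 at the 5′ end in replicate 1 and chr17:36031841-36032020 in replicate 2, and each library listed both. H2-Q1, H2-Q10, a secreted product of the liver, and H2-T3 had no promoter peak. The H2-Q6, H2-Q7, H2-T23 and H2-T22 values are uncertain, because only 28.9%, 31.5%, 39.1% and 57.4% of the words at their 5′ ends occurred once in the genome. Over all MHC genes, 15 of 43 had under 90% unique words (34.9%, beside 19.6% of all genes). How the aligner placed reads of such copies is not given in the sources used here.

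H2-M3 presents N-formylated peptides of bacteria and mitochondria and was the only accessible gene of its group, at 94.6 and 92.4. The other 11, H2-M1, H2-M2, H2-M5, H2-M9, H2-M11 and H2-M10.1 to H2-M10.6, had no promoter peak in either library. Around their outermost 5′ ends, 1 kb each way, neither library listed a base whose false discovery rate reached 0.001. The H2-M10 genes and H2-M1 and H2-M9 are known from vomeronasal neurons. The median share of unique words at the 5′ ends of the 12 H2-M genes was 92.9%, beside 98.5% of all genes. It was under 90% in 3 of the 12, H2-M10.3 (77.7%), H2-M10.5 (79.2%) and H2-M9 (88.3%), and 100% in H2-M2 and H2-M11. Its part in the missing peaks was not tested. Of the other 142 protein-coding genes in the same stretch of chromosome 17, from Tapbp to H2-M2, 86 were accessible in both libraries (60.6%). None of the 19 olfactory receptor (Olfr) genes among them was.

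Class II alpha and beta chains are encoded by H2-Aa, H2-Ab1, H2-Eb1 and H2-Eb2. H2-Eb1 had the highest peak of them, at 90.3 in replicate 1 and 91.4 in replicate 2, H2-Aa had 86.8 and 91.2, and H2-Ab1 had 86.3 and 87.4. All 3 thus lay near the median of all accessible promoters in both libraries. H2-Eb2 had no promoter peak in the smaller list of either library. H2-Eb1 peaks lie close to the antisense gene Gm20513, and DNase cuts carry no transcript strand.

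Class II loading genes had a wider range. H2-DMa and the H2-DMb genes encode H2-DM, which exchanges peptide on class II molecules, and H2-Oa and H2-Ob encode its modulator H2-DO. Cd74 encodes the invariant chain. H2-DMa reached 99.6 and 98.98, but its annotated model starts at Brd2, a gene accessible in its own right, and 7 of its 8 peaks in replicate 1 lie at that side. The peak at its own inner 5′ end, chr17:34135321-34135540 in replicate 1, had 99.6 there and 98.9 in replicate 2. Cd74 had 76.8 and 80.4, H2-DMb1 had 74.2 and 71.2, H2-DMb2 had 67.9 and 79.3, and H2-Ob had 61.4 and 55.7. These 4 lay below the median of all accessible promoters in both libraries. H2-Oa had no promoter peak.

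The regulators divided. Nlrc5, the coactivator of class I genes, had a promoter peak at 68.7 and 73.0, which also lies at the 5′ end of 9330175E14Rik. Ciita, the coactivator of class II genes, had none at any of its annotated 5′ ends and no base whose false discovery rate reached 0.001 around the outermost one. In the authors' larger peak list, which holds 145663 and 117300 peaks, Ciita, H2-Eb2, H2-Oa and H2-M5 gained a promoter peak in replicate 1, and of these H2-Oa also in replicate 2. Ciita did have distal peaks in both libraries, described below. Lists of other pathway genes are read beside the 63.6% of all protein-coding genes that were accessible in both libraries. All 14 interferon receptor, kinase, STAT and IRF genes were accessible. So were all 7 genes of the RFX, NF-Y and CREB1 proteins that bind the X and Y boxes. All 8 class I pathway genes outside the rule, such as Calr, Canx and Erap1, were accessible too. Of 5 matched class II pathway genes outside the rule 2 were, Lgmn and Cd40, while Ctss, Cd80 and Cd86 were not.

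Footprints are short stretches inside accessible DNA that were cut less than their surroundings, and the authors listed them at a threshold of 0.01. All 26 accessible MHC genes had at least 1 footprint in a promoter peak in replicate 1, and 25 had in replicate 2, H2-Q2 being the exception. This was also usual among all accessible protein-coding genes. In their highest promoter peak, 14465 of 14611 had a footprint in replicate 1 and 13825 of 14072 in replicate 2. The class II chain and loading genes held 8 accessible promoters. In H2-Eb1, H2-Aa, H2-Ab1, H2-Ob and H2-DMb1 a footprint began at a like distance before a Y box on the gene's strand. The same held at the inner 5′ end of H2-DMa, described below. In H2-Eb1 1 footprint of 53 bases, the same in both libraries, began 41 bases before the Y box and ended 7 bases after it. In H2-Ab1 the footprint was 51 bases wide in replicate 1 and 54 in replicate 2, and in H2-Aa 48 and 46. These 3 covered all of the Y box in both libraries.

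H2-Ob and H2-DMb1 had a footprint at the same place but narrower. That of H2-Ob was 37 and 35 bases wide and began 45 and 44 bases before its Y box, and that of H2-DMb1 was 30 and 29 bases wide and began 41 and 40 bases before. Both stopped short of the Y box, by 13 and 14 bases in H2-Ob and by 16 in H2-DMb1. In these 5 promoters (H2-DMa aside) and both libraries the footprint thus began between 37 and 45 bases before the Y box. For each gene, the Y box on its strand nearest the centre of the highest peak in replicate 1 was taken. The footprint was the widest that touched the 60 bases ending with that box, so the choice itself bounds the distance. At a further H2-Ab1 Y box on the gene's strand, chr17:34263182-34263186, the footprint so picked began 42 and 43 bases before it. It covered 0 and 1 of the letters, and began 33 and 34 bases before the adjacent box on the other strand. The distance was not general. At H2-DMa boxes on the gene's strand it was 92 and 16 (chr17:34119507-34119511) and 25 and 35 (chr17:34119621-34119625). At the H2-Eb1 boxes on the opposite strand it was 1 and 6 at chr17:34304930-34304934, and 65 in both libraries at chr17:34305832-34305836.

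Of the other 3 accessible class II genes, H2-DMa had a footprint at a like distance before 1 of its Y boxes. At the inner 5′ end of H2-DMa a footprint of 52 bases in replicate 1 and 56 in replicate 2 began 39 and 42 bases before the Y box at chr17:34135547-34135551 and covered all of it, but that Y box was inside the listed peak in replicate 2 only. At the H2-DMa peaks on the Brd2 side no Y box lay wholly in a footprint in either library. Cd74 has its Y box on the opposite strand, and a footprint of 44 and 47 bases covered 2 and 4 of the 5 letters. In the gene's direction that footprint began 42 and 43 bases before the box. H2-DMb2 had no ATTGG in its peak, where the footprints were 18 bases wide in replicate 1 and 24 and 11 in replicate 2. The footprints at H2-Eb1, H2-Aa and H2-Ab1 were wide for these files: 0.442% of the 326313 footprints of replicate 1 and 0.657% of the 252174 of replicate 2 reached 46 bases, a width chosen after the values were seen. The median width was 11 and 10. Such widths were not limited to these 3 genes: 5 of the 163 footprints in MHC promoter peaks of replicate 1 and 6 of the 152 of replicate 2 reached 46 bases. The others were those of H2-DMa in both libraries, another at H2-Eb1 in replicate 1 (48 bases), and those of H2-T23 (46) and Cd74 (47) in replicate 2.

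**Figure D2:**
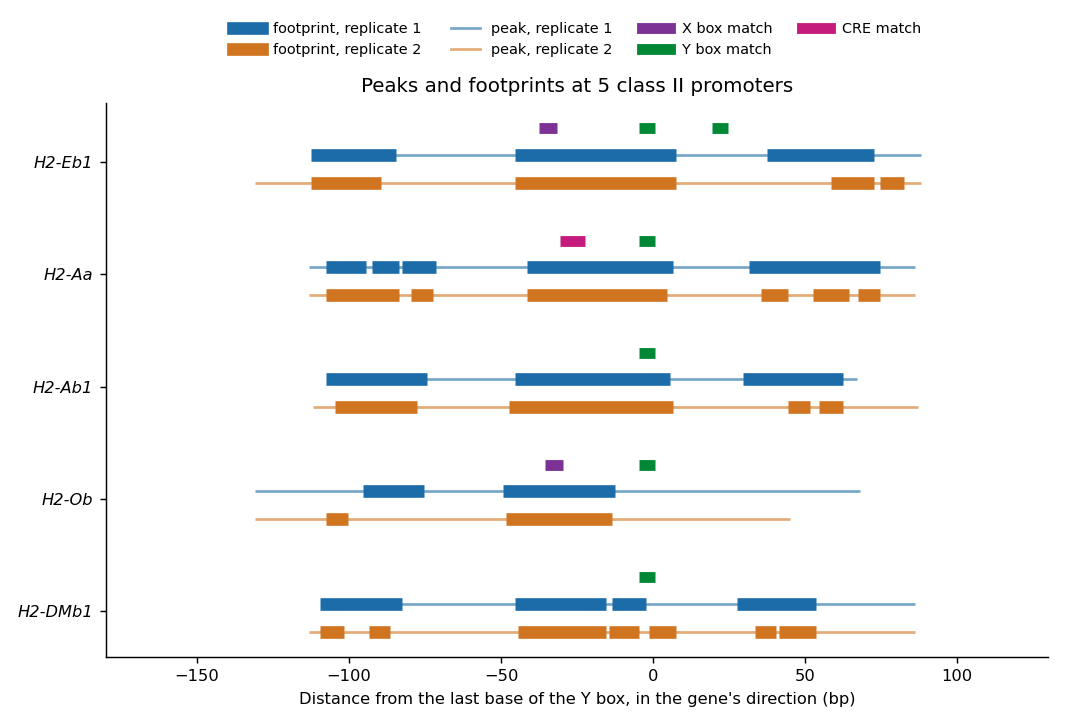
Peaks (thin lines), footprints (thick bars) and consensus matches (short bars above) at 5 class II promoters, by distance in bp from the last base of the Y box in the gene's direction, with replicate 1 above replicate 2. The central footprint begins 37 to 45 bases before the Y box in these 5, and covers the box in H2-Eb1, H2-Aa and H2-Ab1.

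For H2-Eb1, H2-Aa, H2-Ab1 and H2-Ob, the letters around that footprint can be read in the sequences above, while the sequence of H2-DMb1 is not shown. AGCAAC ended 27 bases before the Y box in H2-Eb1 and 25 bases before it in H2-Ob, and the near match GGCAAC 28 bases before it in H2-Aa. The letters TGATGC, noticed after the sequences were seen, ended 18 bases before the Y box in H2-Eb1, where another copy ended 2 bases before it, 19 in H2-Ab1, 16 in H2-Ob and 19 in H2-DMb1. In H2-Aa the CRE, TGACGTCA, ended 18 bases before it. The full X and Y module, AGCAAC followed by ATTGG on the same strand with 10 to 40 bases between, was found on either strand in 4 of the 43 MHC genes in the window from 250 bases before to 50 after the outermost 5′ end, beside 0.552% of all genes. These were H2-Eb1, H2-Ob, H2-Eb2 and H2-Oa, and the last 2 of them had no promoter peak.

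The Y box, the shortest of the patterns searched, was the most frequent of them in MHC genes and in all genes alike. In the 200 bases at the centre of the highest promoter peak, ATTGG on either strand was present in 18 of 25 distinct MHC peaks in replicate 1 (72.0%) and 19 of 25 in replicate 2 (76.0%). All genes had it in 30.9% and 32% of such peaks. The 200 bases can reach past the peak: at the highest peak of Psmb9 and Tap1, counted here, no ATTGG lay inside the peak itself. In the 300-base window it was present in 29 of 43 (67.4%), beside 39.0%, and 10 of these 29 genes were H2-M genes without a peak. The letters were thus also found in promoters that were not accessible. Of the Y box matches in MHC promoter peaks, 8 of 40 in replicate 1 (20%) lay wholly in a footprint, beside 17.6% in all promoter peaks. In replicate 2 it was 11 of 38 (28.9%), beside 17.8%.

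A pair of Y boxes facing each other with 18 to 20 bases between them was noticed after the matches were seen, and was then counted in all peaks. It was present in 7 of 25 MHC peaks (28.0%) in each library, those of H2-D1, H2-Eb1, H2-K1, H2-Q4, H2-Q6, H2-Q7 and H2-T22. Over all genes it was present in 40 of 13284 peaks (0.301%) and in 43 of 12750 (0.337%). As the list above shows, the H2-Q4 and H2-Q6 pairs share 28 of 29 bases and those of H2-K1 and H2-Q4 share 25. The class I genes among the 7 are related copies, so their matches are not independent. H2-Eb1 is a class II chain gene. No footprint touched the pair in H2-D1, H2-Q6 or H2-Q7 in either library.

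**Figure D3:**
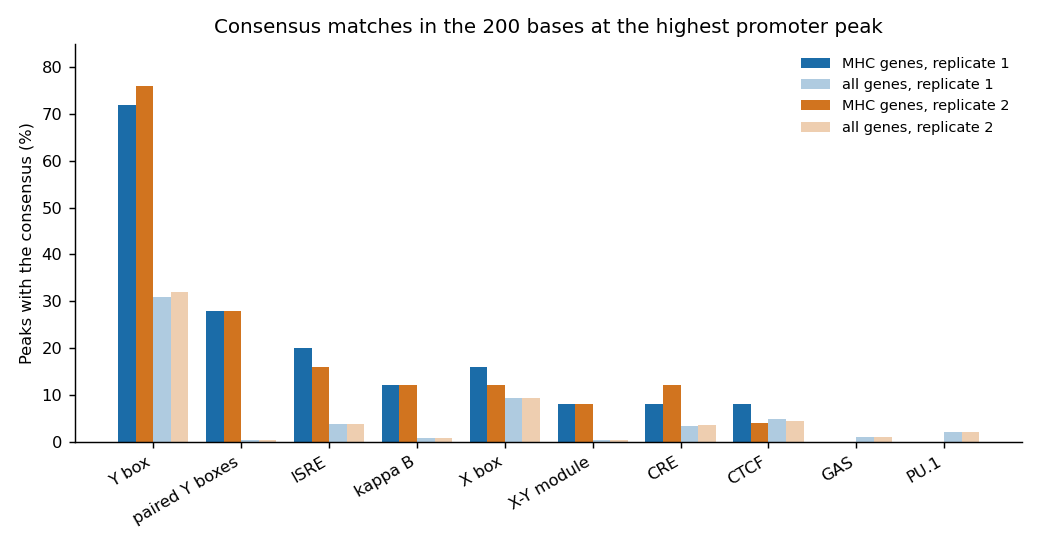
Percent of highest promoter peaks whose central 200 bases hold each consensus (y axis), for MHC genes (solid bars) and all genes (pale bars) in replicate 1 and replicate 2. The Y box is in 72.0% and 76.0% of MHC peaks beside 30.9% and 32% of all, and the paired Y boxes in 28.0% beside 0.301% and 0.337%. The pair was noticed after the matches were seen, and the class I genes that hold it are related copies.

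The kappa B letters GGGATTNCC, the binding sequence of NF-kappa B, were in 4 of 43 windows (H2-K1, H2-Q4, H2-Q6 and H2-Q7), beside 1.08% of all genes. They were in 3 of 25 peaks in each library, those of H2-D1, H2-K1 and H2-Q7, beside 0.843% and 0.863%. The H2-K1 and H2-D1 stretches printed above share 24 of 25 bases. The 9 kappa B letters of H2-D1 lay wholly in a footprint in both libraries, of 37 bases in replicate 1 and 33 in replicate 2. In H2-K1 a footprint of 19 and 27 bases covered 2 and 6 of the 9 letters, and in H2-Q7 one of 18 and 25 bases covered 6 and 9. The H2-Q4 and H2-Q6 letters lie outside the peaks. A footprint of 22 and 25 bases covered 5 and 9 letters in H2-Q4, and none touched those of H2-Q6 in either library. Replicate 2 also held a match in an H2-DMa peak, chr17:34118257-34118265, that no footprint touched. Of the kappa B matches in MHC promoter peaks, 1 of 3 in replicate 1 and 2 of 4 in replicate 2 lay wholly in a footprint. The share in all promoter peaks was 8.47% and 10.6%.

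The interferon-stimulated response element (ISRE), searched as GAAANNGAA on either strand, was in 6 of 43 windows (14.0%, beside 8.47%). It was in the 200 bases at the centre of 5 and 4 of 25 highest promoter peaks (beside 3.65% in each library). These 200 bases can reach past the peak, and the B2m letters lie outside its listed peaks. The ISRE is the binding sequence of IRF and STAT complexes, and these examples show it in the genes of class I supply and regulation, with the 9 letters in capitals. They lie at chr2:122147540-122147564, chr8:94434386-94434410, chr17:34204493-34204517 and chr17:34198338-34198362, all on the plus strand.
B2m: aagaacatGAAACTGAAaatgggaa
Nlrc5: tggccactTTCAGTTTCcacagagc
Tap2: agtgaagtGAAAGCGAAagccgcgg
Psmb8: ctgtggctTTCGCTTTCacttcctt
None of the 10 ISRE matches in MHC promoter peaks of replicate 1, and none of the 7 in replicate 2, lay wholly in a footprint. The share in all promoter peaks was also low, 6.74% and 5.68%.

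A CRE was present in the promoter peaks of Psmb8, H2-Aa and H2-DMa, and all 3 matches lay wholly in a footprint in both libraries. The H2-DMa match lies in a peak on the Brd2 side of its model and not at its inner 5′ end. In all promoter peaks the share was 79.2% and 80.2%. CTCF, an insulator protein, had a match in the peaks of Tap2 and at the inner 5′ end of H2-DMa, and both lay wholly in a footprint in both libraries, beside 77.4% and 76.0%. PU.1 letters, GAGGAAGT, were in none of the 43 windows, beside 3.23% of all genes. The interferon-gamma activated sequence (GAS), TTCCNGGAA, was in 1, that of H2-D1, beside 1.18%. That these letters were not found in these windows says nothing of other sites.

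Accessible promoters usually hold many CpG dinucleotides, while the accessible class II chain genes held few. The median count in the 300-base window was 3 for MHC genes and 11 for all genes. It was 8 for the 26 accessible MHC genes, beside 18 for all accessible genes, and 2 for the 17 without a peak, beside 2. H2-Eb1 had 0, H2-Ab1 1, H2-Aa 3, and Cd74, H2-Ob and Tap2 2 each, and all were accessible. The window stands at the outermost 5′ end, while a peak near any 5′ end made a gene accessible. For Tap2, H2-Q2 and H2-T23 the highest peak lies outside the window, so their counts are not those of the peak. How often this held for all genes was not counted. Among genes with 0 to 3 CpG in the window, 9 of 23 MHC genes (39.1%) were accessible in both libraries, beside 17.4% of all 5642 such genes. Tap2, H2-Q2 and H2-T23 are among the 9. The cut of 3 was not set in advance and equals the median of the MHC genes. Among those with more, 17 of 20 (85%) were, beside 79.5%. H2-Q10, with 19, had no peak.

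**Figure D4:**
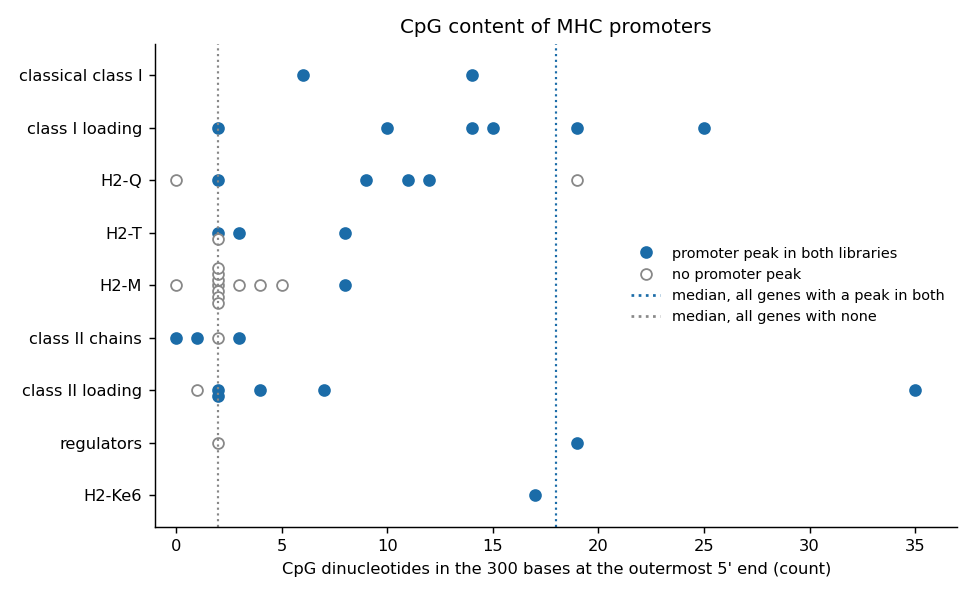
CpG count in the 300-base window at the outermost 5′ end (x axis) for each MHC gene by role, filled for a promoter peak in both libraries and open for none; dotted lines mark the medians of all genes with a peak in both, 18, and with none, 2. Accessible class II chain genes have 0 to 3, while class I supply genes reach 25.

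Distal peaks, over 1 kb from every annotated 5′ end, were counted inside each gene and up to 20 kb beyond either end. MHC genes had a median of 3 in replicate 1 and 2 in replicate 2, a mean of 2.5 ± 0.707 (SD, n = 2), beside 2 and 1 for all genes. They lie close together, so 22 of their 80 distinct distal peaks in replicate 1 and 19 of 68 in replicate 2 were counted for more than 1 of them. Of these peaks 62 in each library had a partner in the other (77.5% and 91.2%, beside 71.0% and 87.9% of all distal peaks). Their median percentile was 61.9 and 60.7, beside 43.1 and 41.9. The most were at H2-DMb2, with 7 in each library. H2-D1 had 6 and 6, H2-DMb1 and H2-Ob 6 and 5, Cd74 7 and 4, and Ciita and Nlrc5 5 and 4 each.

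**Figure D5:**
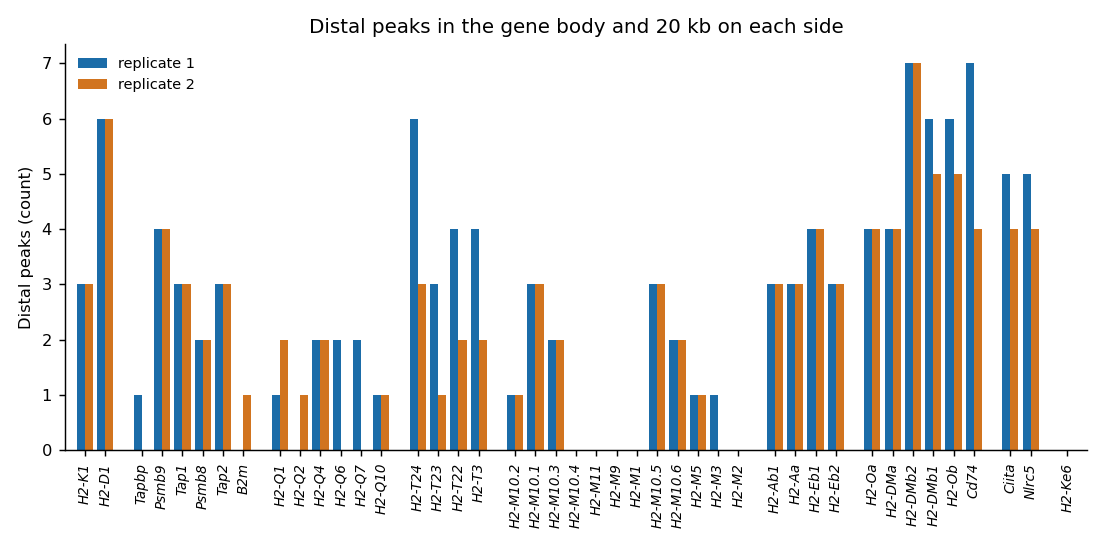
Number of distal peaks per MHC gene (y axis) in replicate 1 and replicate 2, in the order of roles used above. H2-DMb2 has 7 in each library, every class II chain and loading gene has 3 or more, and 5 genes of the H2-M group have none in either library.

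The 4 strongest distal peaks of replicate 1 lay near H2-T24, H2-Oa and H2-DMa, H2-Q1, and H2-D1. That near H2-T24, chr17:35997061-35997240, had percentiles of 99.5 and 97.8 and lies in an intron of A930015D03Rik. The peak 4390 bp from the H2-D1 5′ end, chr17:35258241-35258440, had 96.8 in both libraries. Ciita, closed at its promoters, had 3 intronic peaks in both libraries. The first, chr16:10501921-10502120, had percentiles of 69.2 and 24.3. The others had 85.1 and 82.9 (chr16:10521301-10521500) and 83.2 and 76.1 (chr16:10522941-10523100 in replicate 1). These last stretches also lie within the annotated model of Dexi and are nearest to the Dexi 5′ end.

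CTCF matches were frequent in the distal peaks. Within the central 200 bases they were in 21 of 80 (26.3%) in replicate 1 and 20 of 68 (29.4%) in replicate 2, beside 11.5% and 11.96% of all distal peaks. Searched over whole peaks, 21 of 21 matches lay wholly in a footprint in replicate 1 and 19 of 20 in replicate 2, beside 87.1% and 79.6%. The MHC distal peaks with a CTCF match had a median percentile of 84.3 and 75.9, and those without 52.2 and 53.8. The 4 highest in replicate 1 that both libraries held are shown with 6 bases on each side of the match in capitals. They lie at chr17:34101652-34101677 (plus strand), and on the minus strand at chr17:35302157-35302182, chr17:35274940-35274965 and chr17:36061019-36061044.
H2-Oa and H2-DMa: aaatccCCACCAGGGGGCGCtcgcgt
H2-Q1: gcacggCCGCCAGGGGGCAGcaggac
H2-D1: tcaaggCCGCCAGGGGGCAGcaggac
H2-T22: gaaacaCCAGTAGGTGGCGCtgtgag
The same 14 letters stand in the H2-Q1 and H2-D1 matches. H2-M10.1, H2-M10.5 and H2-M10.6, without a promoter peak, each had a distal peak with a CTCF match in both libraries.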

How the data were processed

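Lung DNase-seq was deposited as 2 libraries of 1 group. Per the file headers and listings, the authors aligned reads to mm10 and called each library alone. For aligner and caller, the name is not given in the sources used here. Each deposited peak score is a signal value whose scale is not stated. The deposited FDR files give p-values adjusted by the authors as a false discovery rate, listed up to 0.05, and the footprints carry only the threshold p-value 0.01. The smaller of each library's peak lists was used. Nothing shows that the libraries came from separate animals, so their spread may be technical.

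Peaks were joined to GENCODE M21 genes (windows of 1 kb, flanks of 20 kb, overlap of at least 1 bp) and sequences read from GRCm38, with Python 3.11.15, numpy 2.4.6, scipy 1.17.1, pandas 2.3.3, numba 0.67.0 and matplotlib 3.10.9. For matches and words both strands were searched, and 32-base words were taken every 10 bases. FDR bases were counted within 1 kb of the outermost 5′ end. No test was run, since the design holds no contrast. The interval joins were tested on simulated data. Described in full were the 12 MHC genes with the highest mean percentile, all class I chain and supply, class II and regulator genes, and the 6 with the most distal peaks. Genes and lists were chosen with earlier results of these data known. The larger peak lists, other windows and thresholds, and leaving out each replicate were tried as alternatives. Ifi30, on a list of class II pathway genes, had no match and is not analysed here.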

Additional observations from a re-analysis of the deposited data

How the results depend on the processing

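The count of MHC genes with a promoter peak in both libraries stayed between 25 and 27 over windows of 500 and 2500 bp, the outermost 5′ end only, protein-coding transcripts only, the larger peak lists and the higher-scoring 50% of peaks, and was 26 with either replicate left out. The median promoter percentile, 90.4 as the mean of both libraries, was 92.7 in the larger lists and ranged from 89.4 to 91.3 with 1 replicate left out. The median distal count, 2.5, was 0 without flanks, 5 with flanks of 50 kb, 4.5 when peaks near the 5′ ends of other genes were counted too, 1.5 for the higher-scoring 50% of peaks, and 2 to 3 with 1 replicate left out. The median number of bases at an FDR of 0.001, 277, was 336.5 at 0.05 and 265 at 0.0001. At 0.001 it was 276 in replicate 1 and 278 in replicate 2, beside 419 and 327.5 for all protein-coding genes. With words of 24 bases in place of 32 the median share of unique words fell from 93.4% to 87.9%. Genes with a footprint numbered 25 to 26 with 1 replicate left out. No paired analysis was possible because there was 1 group. Unknown read depth limits what an absent peak shows.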
